A study of Sus scrofa with 30 samples.

Results

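The 80 genes described here were high in whole pig embryos on Day 10 after insemination and low both 2 days earlier and 2 days later. They were chosen by their measured levels among 13103 genes in 30 single embryos. A gene's CPM, its count divided by the total count of the embryo and scaled to counts per 1e6, was averaged over the 10 embryos of a day. A member had a Day 10 mean of at least 5 CPM and at least 4 times the means of both Day 8 and Day 12. These limits were met by 90 genes, 0.687% of the table. Another 10 of these, IL1B, IL1B2, CYP17A1, CYP19A1, CYP19A2, CYP19A3, HSD17B1, ELOVL6, ACSL3 and TGFB3, were left out by name, because the rule sets them aside. Differences of Day 10 from the other days are therefore a description of what was selected and carry no test.

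Between these days the pig conceptus grows from a small hatched blastocyst into a larger sphere and ovoid, and then elongates into a thread. The trophectoderm, the outer epithelium that later forms the placenta, starts to make estrogens and interleukin 1 beta, and the embryonic disc with its epiblast becomes exposed. Steroid synthesis needs cholesterol brought into mitochondria and electrons passed to cytochrome P450 enzymes. Retinoids and glucocorticoids are changed by related dehydrogenases, while ceramides and monoacylglycerols belong to lipid turnover.

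The embryos were sired by 1 Pietrain boar on synchronized German Landrace × Pietrain gilts, without any other treatment between groups. On each of Days 8, 10 and 12 there were 5 female and 5 male embryos from 4 slaughtered gilts, and each library holds 1 complete embryo with disc and trophectoderm. Embryos of a day thus include littermates, per the study's methods also of both sexes, but the labels do not tie embryos to gilts. No test takes account of the shared mothers, and littermates are treated as independent. Each gilt belongs to 1 day only, so p-values between days can be too small. In such libraries, fewer cells of a type and less RNA per cell cannot be told apart.

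Counts assigned to genes ran from 19773328 to 32476637 in the Day 10 embryos, 14882265 to 33799980 on Day 8 and 6068212 to 34002508 on Day 12. A count of 3 or fewer in a library was taken as its floor, on average 0.128 CPM on Day 10, 0.145 CPM on Day 8 and 0.175 CPM on Day 12, and this covers counting error only. Markers of the embryo were present on Day 10. KRT8, a keratin of trophectoderm, ran from 16727 to 27424 CPM, CDX2 from 167 to 228 CPM, hypoblast GATA6 from 41.0 to 61.0 CPM and epiblast POU5F1 from 9.29 to 18.6 CPM. SOX2 stayed between 0.216 and 0.773 CPM. HBB, a marker of maternal blood, was above the floor in 3 of 10 Day 10 embryos with a highest value of 6.36 CPM. ALAS2, listed with it, was above the floor in all 10, at 0.773 to 3.72 CPM. ESR1, a receptor of the endometrium, was above the floor in 6 with a highest value of 4.61 CPM. OVGP1, listed with ESR1, was above it in all 10, at 0.506 to 2.36 CPM.

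The members held between 3.06% and 12.0% of all counts of a Day 10 embryo (median 7.09%), against 0.254% to 0.510% on Day 8 and 0.190% to 0.406% on Day 12. A group of unplaced genes, described last among the roles, made up 1.75% to 8.42% of the counts on Day 10. In 79 members every Day 10 embryo lay above the floor. On Day 8, 62 members were above the floor in all 10 embryos and 4 in none, and on Day 12 the numbers were 60 and 2. Most members were thus detected before and after Day 10 as well. The median Day 10 mean was 13.9 times the Day 8 mean and 12.6 times the Day 12 mean, with genes at the floor set at their lower bound. Without that group of unplaced genes, but with NOTCH1, which is also unplaced, these medians were 11.54 and 9.82.

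In 66 of the 80 members the lowest Day 10 embryo lay above the highest embryo of both other days. Over all genes 1.75% showed such a separation, but the rule used the same contrast and nothing is read from the difference. The groups overlapped in 14 members, and most strongly in SLC27A6 and ALOX12, in which 4 of 10 Day 10 embryos exceeded all others, and in GRHL3 with 6. Nearest inside the fold limit were MDK with 4.01 times the higher of the other means, SLC16A11 with 4.02 and SLC24A4 with 4.04. Nearest outside were GNA15 with 3.98, MTMR7 with 3.96 and RALGDS with 3.96. At the level limit, RSPH6A, LOC100626387 and LOC102160537 had Day 10 means of 5.04, 6.29 and 6.40 CPM, and TMEM158, LOC110262223 and ARHGEF15 missed it with 4.90, 4.89 and 4.76 CPM. The edge of the list is thus a matter of small differences, and MDK also fell out when any of 5 single Day 10 embryos was left out.

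**Figure D1:**
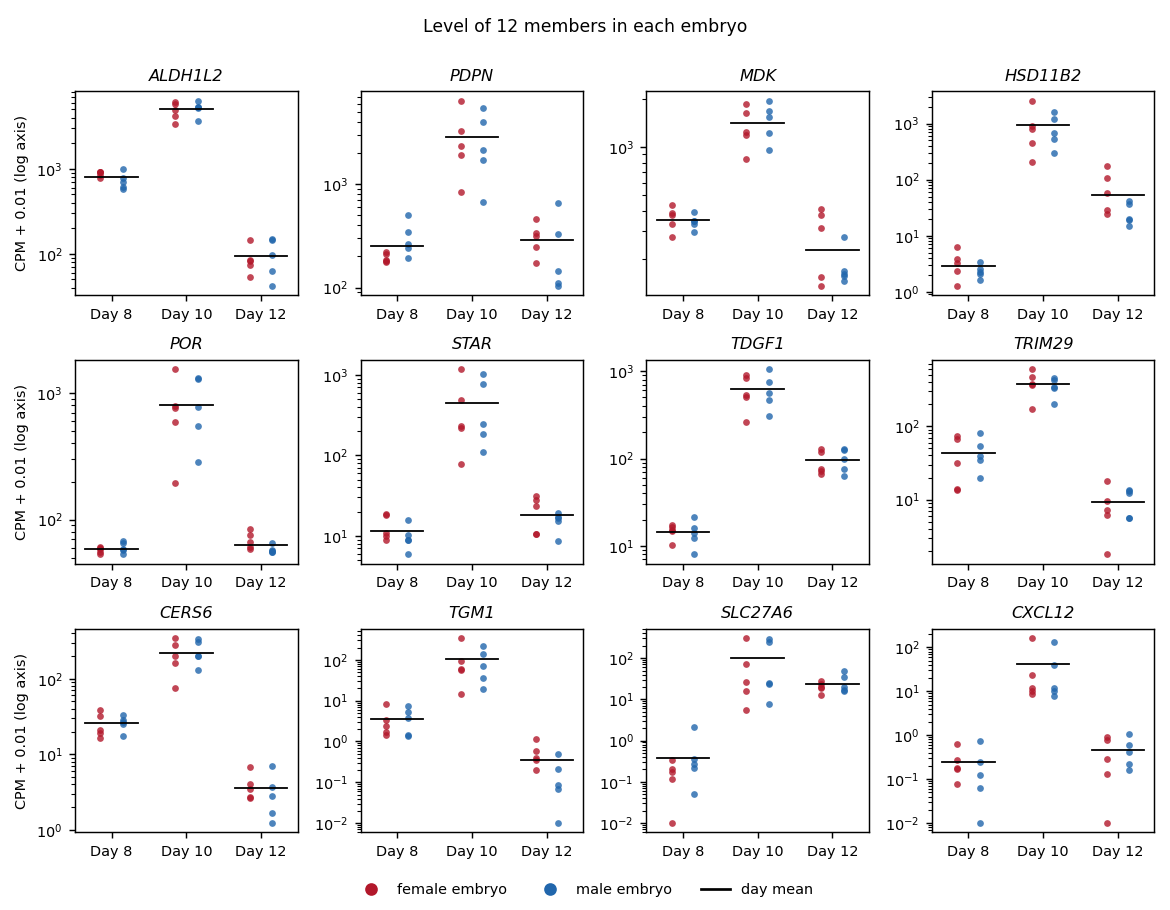
Level of 12 members in every embryo, as CPM + 0.01 on a log axis, by day, with each point 1 embryo, female embryos red and male embryos blue, and the bar the mean of the 10 embryos of a day. The Day 10 mean stands above the means of both other days in all 12. In SLC27A6 some Day 10 embryos lie among those of Day 12, where the values run from 12.7 to 49.4 CPM. There d10_f_433 and d10_m_435 lie below all Day 12 embryos, at 5.54 and 7.91 CPM.

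The steroid and retinoid group had 5 members, and in all of them no embryo of Day 8 or Day 12 reached the Day 10 range. STAR, which carries cholesterol into mitochondria as the entry step of steroid synthesis, ran from 78.7 to 1169.6 CPM on Day 10 with a median of 240 CPM. It was 5.88 to 18.5 CPM on Day 8 and 8.69 to 31.1 CPM on Day 12. POR, the reductase that gives electrons to microsomal cytochrome P450 enzymes, was almost flat on the other days, with 59.1 ± 4.83 CPM (mean ± SD, n = 10) on Day 8 and 63.6 ± 9.57 CPM on Day 12. On Day 10 it spanned 194 to 1540.3 CPM around a median of 766 CPM. HSD11B2, which turns active glucocorticoids into inactive forms, had the widest step in the group, from 2.87 ± 1.41 CPM on Day 8 to 929 ± 718 CPM on Day 10, and 52.2 ± 50.3 CPM on Day 12.

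RDH16 and SDR9C7 belong to a family of short chain dehydrogenases that act on retinoids and steroids. RDH16 was 131 to 579.6 CPM on Day 10 (median 324 CPM), after 8.18 to 25.4 CPM on Day 8 and before 32.0 to 93.3 CPM on Day 12. SDR9C7 had 29.9 ± 12.3 CPM on Day 10, 2.07 ± 1.02 CPM on Day 8 and 6.93 ± 2.42 CPM on Day 12. Both lie side by side on chromosome 5 of the Sscrofa11.1 assembly, SDR9C7 from 22228041 to 22251622 and RDH16 from 22251751 to 22266801. The next genes of the table on that chromosome, LOC100512656 (22277006 to 22285534) and LOC100626199 (22285211 to 22293945), are protein coding genes without a name and were members as well.

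These unnamed neighbours had Day 10 medians of 997 and 1066 CPM, and Day 12 means of 167 ± 85.2 and 180 ± 92.2 CPM. Their spans overlap by 324 bp, and their count ratio stayed between 0.901 and 0.976 over the Day 10 embryos. The ratio of SDR9C7 to RDH16 was also steady, between 0.0843 and 0.106. All 4 adjacent genes therefore kept near the same proportions from embryo to embryo. Whether reads were shared between LOC100512656 and LOC100626199 could not be seen from the counts, so these values are uncertain.

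Lipid genes made up 7 members with varied shapes. CERS6 and CERS3 code for ceramide synthases, which join a fatty acid to a sphingoid base, and SPTLC3 for a subunit of the enzyme that makes that base. CERS6 stood at 75.4 to 345 CPM on Day 10 (median 199.6 CPM) and fell to 3.60 ± 1.92 CPM by Day 12, below its Day 8 mean of 25.8 ± 7.39 CPM. CERS3 had the same order, with 5.42 ± 1.52, 33.7 ± 8.27 and 0.657 ± 0.746 CPM on Days 8, 10 and 12. SPTLC3 kept more of its level, at 1.69 ± 0.801, 30.7 ± 18.7 and 6.08 ± 2.33 CPM.

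MGLL, which splits monoacylglycerols, and MOGAT1, which adds a fatty acid to them, act in opposite directions on the same lipid. MGLL was 27.1 ± 9.74, 219 ± 80.8 and 42.4 ± 14.2 CPM on the days in order, and MOGAT1 8.18 ± 6.09, 113 ± 40.6 and 25.7 ± 8.78 CPM. MOGAT1 overlaps a transcribed pseudogene, LOC100523928, over nearly its whole span on chromosome 15 (124568449 to 124607925), and the count ratio of the pseudogene to MOGAT1 was 1.002 to 1.007 over the Day 10 embryos. These members cannot be told apart in the counts and stand for 1 signal.

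SLC27A6, a fatty acid transporter, and ALOX12, a lipoxygenase that oxidizes arachidonic acid, were the most uneven members of the group. SLC27A6 ran from 5.54 to 306.6 CPM on Day 10 with a median of 25.8 CPM, close to its Day 12 mean of 23.9 ± 10.8 CPM. ALOX12 ran from 3.41 to 169 CPM with a median of 14.2 CPM, against 7.79 ± 5.19 CPM on Day 12. In both, only d10_f_454, d10_m_453, d10_m_333 and d10_f_336 exceeded all embryos of Day 12. The Day 10 mean of these genes was set by few embryos, and with medians in place of means neither met the rule.

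Another 6 members are known from stratified epithelia such as skin. TRIM29, a protein known from basal layers of such epithelia, was at 374 ± 125 CPM on Day 10, after 42.9 ± 24.8 CPM on Day 8 and before 9.27 ± 4.92 CPM on Day 12. SERPINB5, an epithelial serpin, was 24.4 to 211 CPM on Day 10 and 5.11 to 48.1 CPM on Day 12, so that the days overlapped. TGM1, a transglutaminase that links proteins of the cornified envelope, ran from 14.9 to 344 CPM on Day 10 (median 64.8 CPM), with 3.63 ± 2.57 CPM on Day 8 and 0.347 ± 0.342 CPM on Day 12. GRHL3, a transcription factor of the epidermal barrier, ran from 1.32 to 40.0 CPM with a median of 5.44 CPM. DSG3, a desmosomal cadherin, had the smallest CV of all members (SD over mean), with 31.1 to 48.0 CPM on Day 10, 4.34 to 13.95 CPM on Day 8 and 0.125 to 1.51 CPM on Day 12. CLCA2, at or under the floor in all Day 8 embryos, averaged 6.63 ± 6.35 CPM on Day 10, at least 45.7-fold higher than on Day 8.

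Secreted signals and their antagonists gave 6 members. MDK, the heparin binding growth factor midkine, was 841 to 1947 CPM on Day 10 (median 1393 CPM), against 274 to 437 CPM on Day 8 and 136.2 to 410 CPM on Day 12. TDGF1, a coreceptor of NODAL that is also used as an epiblast marker, was 261 to 1047 CPM on Day 10, and rose from 7.97 to 21.4 CPM on Day 8 to 63.2 to 128.9 CPM on Day 12. In both genes the Day 10 embryos lay above all others. CXCL12, a chemokine, was near the floor on Day 8 (0 to 0.710 CPM) and Day 12 (0 to 1.07 CPM). On Day 10 it was 163 CPM in d10_f_454 and 128.99 CPM in d10_m_453, while the median of the 10 embryos was 12.0 CPM and the lowest 7.80 CPM.

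SFRP1 binds WNT ligands, and SHISA3 is known as an antagonist of WNT and FGF receptors. SFRP1 had 4.07 ± 0.951, 26.5 ± 8.36 and 0.433 ± 0.469 CPM on Days 8, 10 and 12, and SHISA3 0.224 ± 0.146, 12.5 ± 6.98 and 0.781 ± 0.647 CPM. ANOS1, a matrix protein named for its role in Kallmann syndrome and the only member on the X chromosome, had 9.90 ± 6.99 CPM on Day 10 and 2.42 ± 1.28 CPM on Day 12. Its days overlapped, with a lowest Day 10 value of 2.05 CPM.

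Receptors and intracellular signalling had 7 members. ITPKA, a kinase of inositol trisphosphate, was at 128 to 332 CPM on Day 10, 10.8 to 25.7 CPM on Day 8 and 4.74 to 18.1 CPM on Day 12. PRKCH, a protein kinase C isoform, varied less, at 18.004 to 33.7 CPM on Day 10 with 1.86 ± 0.563 CPM before and 3.19 ± 1.004 CPM after. RASGRF1, an exchange factor of RAS, was 17.0 to 37.8 CPM. ARHGEF37 was 20.3 to 179 CPM and reached down to its Day 8 range, which ended at 20.6 CPM. LZTS1, a leucine zipper protein, was 18.7 to 127 CPM, and GPR137B, a lysosomal membrane protein, 5.18 to 92.96 CPM, overlapping with Day 12. NOTCH1, a receptor that reads ligands on neighbouring cells, was at 6.78 ± 3.53 CPM on Day 10 and overlapped with Day 8, so that the days overlapped in 3 of these 7 members.

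Ion channels and solute carriers counted 5 members. SLC24A4 and SLC8A1 exchange sodium for calcium, with Day 10 ranges of 87.0 to 209 CPM and 12.4 to 39.0 CPM. KCNJ2, an inward rectifier potassium channel, was 15.9 to 59.6 CPM on Day 10 and 0.562 to 26.4 CPM on Day 12. SLC16A11, a monocarboxylate carrier, averaged 12.8 ± 3.63 CPM and UNC93A, a membrane protein, 19.5 ± 8.48 CPM. SLC24A4 was at 29.4 ± 6.30 CPM on Day 8 and SLC16A11 at 3.18 ± 0.849 CPM, which places both near the fold limit.

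Other metabolic enzymes gave 8 members, and none overlapped between Day 10 and the other days. ALDH1L2, a mitochondrial enzyme of folate metabolism, was 3332 to 6311 CPM on Day 10 (median 5206 CPM), 579 to 979 CPM on Day 8 and 42.0 to 150.2 CPM on Day 12. PFKFB3, which sets the level of a glycolysis activator, was 28.1 to 63.3 CPM, AS3MT, an arsenite methyltransferase, 21.04 to 71.0 CPM, and B3GNT8, which extends N-glycans, 20.5 to 40.0 CPM. AKR1E2, an aldo-keto reductase, was 17.7 to 40.5 CPM on Day 10 and had means on Days 8 and 12 of 6.51 ± 2.28 and 6.68 ± 1.82 CPM. PAOX, a polyamine oxidase, averaged 23.5 ± 6.22 CPM on Day 10. MGAM, a brush border glucosidase, was at or under the floor in all embryos of Day 8 and Day 12 and reached 0.591 to 22.1 CPM on Day 10, on average at least 64.5-fold higher than on Day 8 and at least 53.6-fold higher than on Day 12. GAPDHS, known as a sperm form of a glycolytic enzyme, was 6.59 to 29.0 CPM.

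Cell surface, adhesion and cytoskeleton genes numbered 6. PDPN, a mucin-like membrane protein of several epithelia, ran from 673 to 6453 CPM on Day 10 (median 2255 CPM), with 175 to 501 CPM on Day 8 and 104 to 656 CPM on Day 12. The lowest Day 10 embryo was thus just above the highest of Day 12. ANK3, which anchors membrane proteins to spectrin, was 36.6 to 119.4 CPM and GLDN, a cell adhesion protein of nerve nodes, 31.5 to 78.3 CPM. PDZD2, a PDZ domain protein, had 9.86 to 25.3 CPM, MYLK, the myosin light chain kinase, 2.9995 to 25.8 CPM, and SYNPO2, an actin binding protein, 2.91 to 18.4 CPM. MYLK overlapped with Day 12 and SYNPO2 with Day 8.

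The 8 other named members did not overlap between Day 10 and the other days. PLAC9, FAM83C and PHTF2 averaged 182 ± 45.2, 122 ± 64.0 and 114 ± 44.6 CPM on Day 10. ANKRD33B, an ankyrin repeat protein, was 0.105 to 0.799 CPM on Day 8 and 0.494 to 2.98 CPM on Day 12, but 3.04 to 226 CPM on Day 10. C15H2orf54 was 24.95 to 104 CPM, RAB3B, a small GTPase of vesicle release, averaged 37.6 ± 11.9 CPM, CELF2, an RNA binding protein, 14.98 ± 5.78 CPM and RSPH6A 5.04 ± 1.65 CPM. Of the 9 placed genes without a name, LOC100521229 on chromosome 15 (132919557 to 132923570) stood first in the CPM order of the rule, which takes no account of gene length, at 4651 to 11527 CPM on Day 10. It was at 1543 ± 569 CPM on Day 8 and dropped to 481 ± 167 CPM on Day 12.

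Of the 80 members, 14 lay on sequence that the assembly does not place on a chromosome, 17.5% beside 1.9995% of all genes of the table. Apart from NOTCH1 they are 13 genes with LOC numbers, and 12 of these span 5100 to 6153 bp each, with 6 annotated as pseudogenes and 6 as protein coding. Over the Day 10 embryos their counts followed those of IL1B2, an interleukin 1 beta gene of the pig that is also unplaced. IL1B2 was left out of the list by name. LOC110258582 was 0.524 to 9.79 CPM on Day 8, 2752 to 11575 CPM on Day 10 and 66.5 to 451 CPM on Day 12. LOC110255300 had 1.62 ± 1.24, 6296 ± 2954 and 118 ± 52.5 CPM, and LOC110258095 1.29 ± 1.56, 5752 ± 2926 and 80.9 ± 60.6 CPM. LOC110258272 had no count on Day 8 and 4.79 to 56.1 CPM on Day 10, on average at least 177-fold higher than on Day 8.

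For each of the 12 genes the count was divided by that of IL1B2 in the same embryo. Over the 10 Day 10 embryos, whose IL1B2 level ran from 3604 to 18760 CPM, the largest of these ratios exceeded the smallest by 1.13 to 2.41 times, with a median over genes of 1.34 times. The same figure was 3.13 times for ALDH1L2, 4.26 times for PDPN and 6.12 times for STAR. The 12 genes together held 4.37 to 4.91 times the counts of IL1B2. The 13th, LOC110258135, which spans 29251 bp, did not follow, and its ratio varied 8.15 times.

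No sequence was compared here, and the counting rule for reads that match several copies is not given in the sources used here. Reads of near-identical copies can be split between them, so the levels of the 12 genes are uncertain one by one. They also take a large part of the column totals. When the 13 unplaced genes, IL1B2 and IL1B were taken out of the column totals, 92 genes met the rule, with all 80 members among them, and edgeR's TMM scaling added 23 genes to the 80.

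**Figure D2:**
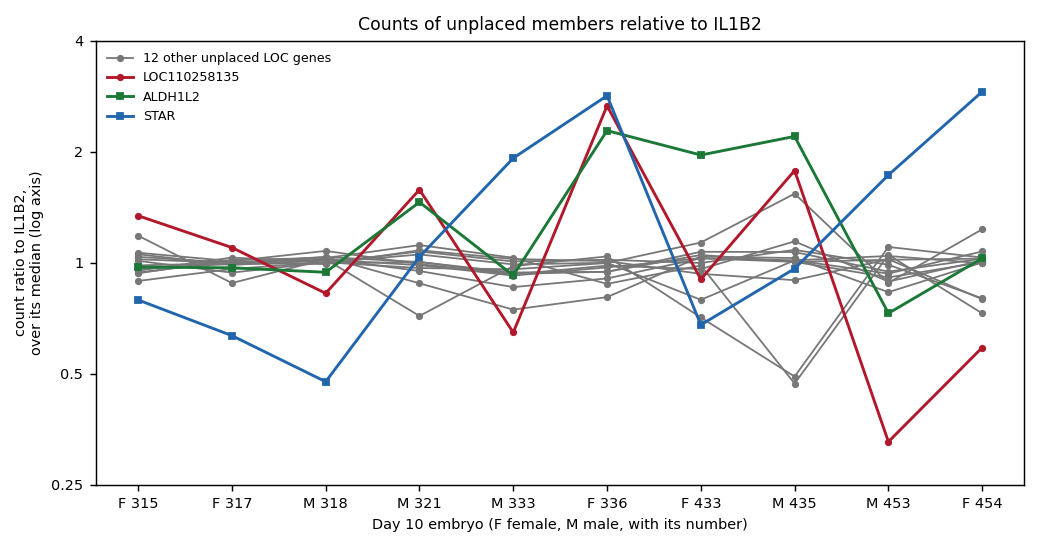
Count of each gene divided by the count of IL1B2 in the same Day 10 embryo, then by the median of that ratio over the 10 embryos, on a log axis, with embryos in order of their number. The 12 grey unplaced genes stay near 1 in most embryos, but in d10_m_435 LOC110259014 and LOC110258272 fall below it and LOC110259156 rises above it, while LOC110258135, ALDH1L2 and STAR move apart from it.

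Embryos of Day 10 differed widely in the members. The coefficient of variation (CV, the SD over the mean of the 10 embryos) had a median of 45.1% over the members and ran from 15.2% to 135%. It was 16.8% over the 9011 other genes with a Day 10 mean of at least 5 CPM, and 64 members exceeded the level that 90% of those genes stayed under, 32.0%. The members were selected on the same values, so this comparison is a description. The 6 with the largest CV were CXCL12 with 135%, ALOX12 with 123.96%, SLC27A6 with 123%, GRHL3 with 116%, ANKRD33B with 100.5% and TGM1 with 98.7%. The 6 with the smallest were DSG3 with 15.2%, PRKCH with 18.7%, B3GNT8 with 19.7%, ALDH1L2 with 20.03%, CERS3 with 24.5% and PLAC9 with 24.8%. Genes of the same role thus stood at both ends, as DSG3 and GRHL3 among those of stratified epithelium and CERS3 and ALOX12 among the lipid genes.

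**Figure D3:**
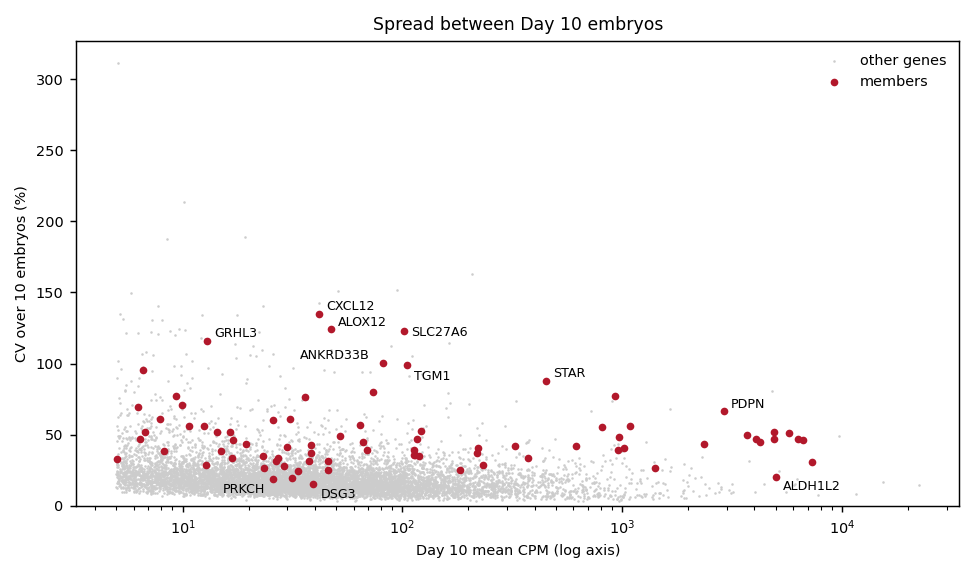
CV over the 10 Day 10 embryos in percent against the Day 10 mean in CPM on a log axis, for the 80 members in red and the 9011 other genes in grey. Most members lie above the bulk of genes of like level, while DSG3, PRKCH and ALDH1L2 lie within it.

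The spread had an order. The embryo d10_f_454 was the highest of Day 10 in 33 members and d10_m_453 in 28, while d10_f_433 was the lowest in 44 and d10_m_435 in 23. The same embryos also stood apart in the 9011 other genes, mostly the opposite way. Of those genes, d10_f_454 was lowest in 27.2% and highest in 11.51%, d10_m_453 lowest in 24.1% and highest in 7.38%, d10_f_433 highest in 28.6% and lowest in 8.99%, and d10_m_435 highest in 17.5% and lowest in 5.57%. With TMM scaling the shares of highest and lowest genes came closer, at 19.3% and 18.4% in d10_f_454, 11.13% and 18.4% in d10_m_453, 17.3% and 15.9% in d10_f_433, and 11.4% and 10.04% in d10_m_435. The median member stood at 1.48 times its Day 10 mean in d10_f_454 and 1.56 times in d10_m_453, but at 0.424 times in d10_f_433 and 0.531 times in d10_m_435. The other 6 embryos lay between 0.814 and 1.22 times. Each pair holds a female and a male embryo with near numbers, and the labels do not say what the numbers mean. These embryos were singled out after their values were seen.

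STAR is an example of the order, with 1169.6 CPM in d10_f_454, 1022 CPM in d10_m_453, 760 CPM in d10_m_333 and 494 CPM in d10_f_336. It was between 182 and 248.7 CPM in d10_f_315, d10_f_317, d10_m_318 and d10_m_321, and 109.4 and 78.7 CPM in d10_m_435 and d10_f_433. POR was 1540.3 CPM in d10_f_454, 1309 CPM in d10_m_333 and 1288 CPM in d10_m_453, and lowest with 194 and 285 CPM in d10_f_433 and d10_m_435. All 5 steroid and retinoid members and all 7 lipid members were highest in d10_f_454 or d10_m_453, and lowest in d10_f_433 or d10_m_435. The same held for most of the list, as 76.25% of all members were highest and 83.75% lowest in these embryos.

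A few members ran the other way. KCNJ2 was lowest in d10_m_453 and d10_f_454, with 15.9 and 17.8 CPM, and highest in d10_f_317 with 59.6 CPM. AKR1E2 was also lowest there, with 17.7 and 21.1 CPM, against 34.2 CPM in d10_f_433 and 38.2 CPM in d10_m_435. SYNPO2 had 2.91 and 3.20 CPM in d10_f_454 and d10_m_453, and 12.6 and 10.7 CPM in d10_f_433 and d10_m_435. SFRP1 was lowest in d10_f_454 with 9.46 CPM and had 23.4 CPM in d10_m_453, below the 24.7 and 29.9 CPM of d10_f_433 and d10_m_435. UNC93A was high in all of these 4 embryos, at 25.2 to 32.3 CPM, and lowest in d10_m_333 with 7.89 CPM.

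**Figure D4:**
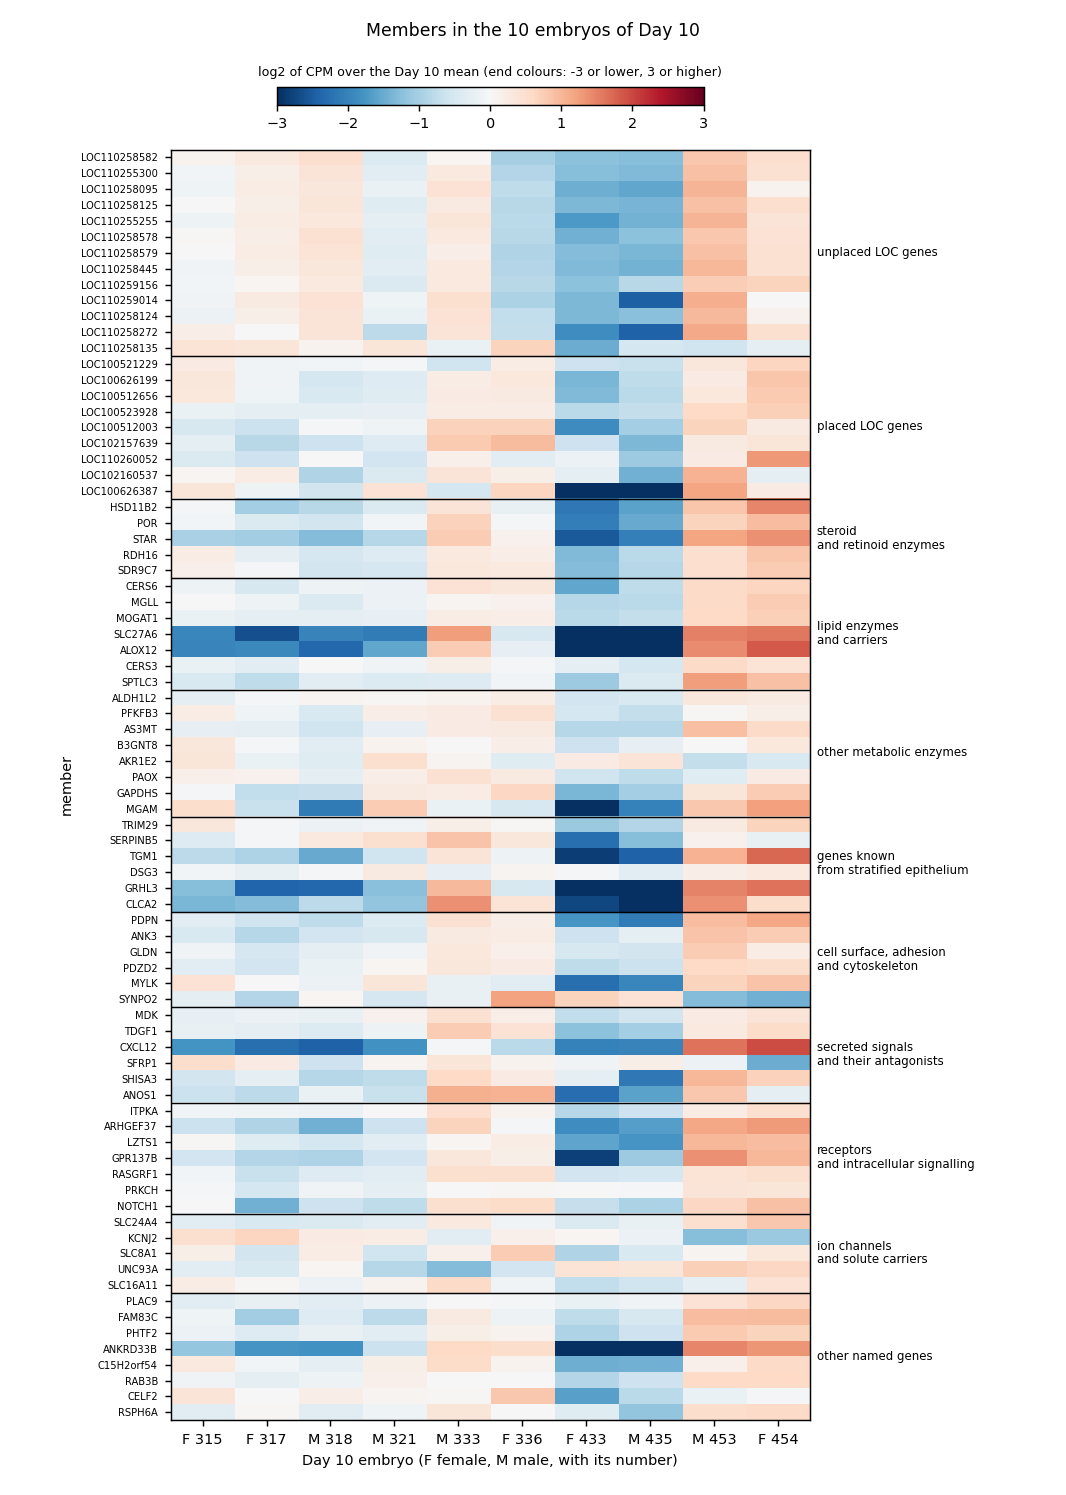
Each row is a member and each column a Day 10 embryo, with colour the log2 of its CPM over the mean of the 10 embryos, red above and blue below, and rows grouped by role. The columns of d10_f_433 and d10_m_435 are blue and those of d10_m_453 and d10_f_454 red in most rows, with KCNJ2, AKR1E2, SFRP1 and SYNPO2 in the opposite order.

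Some other measures moved with this order, and others did not. HAND1, a transcription factor that stands in both the trophectoderm list and the primitive streak and mesoderm list, was highest in d10_f_454 and d10_m_453, at 145.9 and 141 CPM, and lowest in d10_m_435 and d10_f_433, at 22.5 and 27.8 CPM. It made up 91.6% of the summed level of the 5 measured streak and mesoderm markers, and the other 4 together were at 2.80 to 9.49 CPM, with 4.19 and 6.19 CPM in d10_f_454 and d10_m_453. In the trophectoderm list of 15 genes, KRT8 and KRT18 made up 95.9% of the sum. The full sum was lowest in d10_m_453 and d10_f_454, at 28729 and 31484 CPM, with 38331 to 47858 CPM elsewhere. Genes of this list went both ways, since GATA2 was also lowest in these embryos, at 179 and 202 CPM, while PPARG was highest there, at 13.3 and 12.4 CPM. Without the keratins KRT8 and KRT18 the sum ran from 1421 to 1833 CPM and did not follow the order. It was 1421 CPM in d10_m_453 and 1679 CPM in d10_f_454, beside 1448 CPM in d10_m_435 and 1484 CPM in d10_f_433.

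The 9 epiblast markers, which include the member TDGF1, summed to 652 to 1730 CPM and the 12 hypoblast markers to 2304 to 4881 CPM on Day 10. The epiblast sum was lowest in d10_f_433 and highest in d10_f_454, where TDGF1 alone was at 261 and 908 CPM. Of maternal cells, the 7 blood and immune markers summed to 31.3 to 39.7 CPM, of which ITGAM made up 89.4%, and the other 6 to 1.32 to 8.25 CPM. The 10 endometrium markers summed to 23.6 CPM in d10_m_435, 20.9 CPM in d10_m_453, 13.5 CPM in d10_f_454 and 10.0 CPM in d10_f_433. Elsewhere on Day 10 their sum was 2.41 to 4.66 CPM. PTPRC, PGR and LTF, defining markers of these lists, are not in the table used here. The part of any of these in the spread of the members was not tested.

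Female and male embryos of Day 10 were compared next, since the rule pooled both sexes. No member was called between 5 female and 5 male embryos by edgeR's quasi-likelihood test at an adjusted p (false discovery rate, FDR) under 0.05, against 0.223% of the 11675 genes of the Day 10 table. At an unadjusted p under 0.05 the test also gave 0 of 80 members, beside 2.36% of all genes. DESeq2 and edgeR's robust GLM called 0 members as well. The log2 differences, female over male, ran from -0.77 in CLCA2 to 0.37, with a median of -0.03 and a median SE of 0.43. ANOS1 on the X chromosome had a mean of 8.63 TMM scaled CPM in females and 11.6 in males, a log2 difference of -0.43 (SE 0.62) that was not called.

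The levels before and after the Day 10 peak were compared with each other, because the rule limits both but does not set them against each other. With edgeR at an FDR under 0.001 and a log2 change beyond 1, 31 of 80 members were higher on Day 12 than on Day 8, beside 22.0% of all 13103 genes. Another 17 were lower on Day 12, beside 10.4% of all genes, and 32 were called neither way. The median log2 change was 0.97 over the members and 0.09 over all genes. The 13 unplaced genes with LOC numbers carried 11 of the 31 rises. Without them 20 of 67 members were higher, 17 lower, and the median was 0.61.

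Among the 6 largest rises, 5 were unplaced genes that followed IL1B2 over the Day 10 embryos, with LOC110255255 at the top (log2 change 6.44, SE 0.97). The proportion to IL1B2 did not hold for LOC110255255 on Day 12. It was at 0 CPM in d12_f_271 and d12_m_276, where IL1B2 was at 149 and 47.0 CPM. SLC27A6 was the other, with a log2 change of 5.75 (SE 0.80, FDR 1.76e-07 with edgeR). On Day 8, LOC110255255 was above the floor in only 2 of 10 embryos and SLC27A6 in 4, so the size of these rises is uncertain. HSD11B2 rose by 4.18 (SE 0.51), ALOX12 by 3.36 (SE 0.66), TDGF1 by 2.69 (SE 0.23) and SERPINB5 by 2.69 (SE 0.37). RDH16, SDR9C7, LOC100512656 and LOC100626199 rose by 1.71 to 1.98. These genes stayed higher after Day 10 than they had been before it.

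Of the falls, LOC110260052, an unnamed gene on chromosome 3, was at or under the floor in all Day 12 embryos, and its Day 8 mean was at least 8.18-fold above that floor. The log2 change was -4.65 in GAPDHS (SE 0.45), -3.90 in DSG3 (SE 0.28), -3.72 in TGM1 (SE 0.67), -3.21 in SFRP1 (SE 0.33) and -3.11 in ALDH1L2 (SE 0.20, FDR 1.61e-14 with edgeR). It was -3.07 in CERS3, -2.93 in CERS6 and -2.22 in TRIM29. These genes were lower after Day 10 than before it. STAR and POR were called neither way, with log2 changes of 0.62 (SE 0.40) and 0.09 (SE 0.24).

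By role, 3 of 5 steroid and retinoid members were higher on Day 12 and none lower, and 4 of 7 lipid members were higher and 2 lower. Of the stratified epithelium members 1 was higher and 3 were lower, of the other metabolic enzymes 0 and 3, of receptors and intracellular signalling 1 and 2, and of secreted signals 1 and 1. Cell surface genes gave 3 and 1, ion channels and carriers 1 and 1, other named genes 2 and 1, and placed genes without a name 4 and 3. Over all genes 22.0% were higher and 10.4% lower, and roles of this size are too small to set against these shares. Ceramide synthases and HSD11B2 thus lay on opposite sides although both peaked on Day 10.

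**Figure D5:**
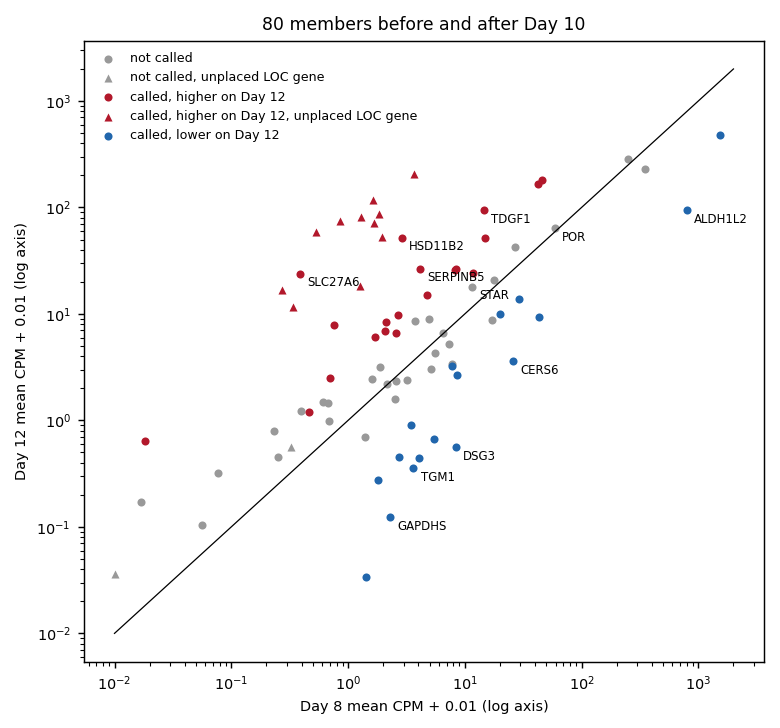
Day 12 mean against Day 8 mean of the 80 members, both as CPM + 0.01 on log axes, with the line of equal levels. Members called higher on Day 12 are red, those called lower are blue and the rest are grey. Triangles mark the 13 unplaced genes with LOC numbers. SLC27A6 and HSD11B2 lie well above the line, ALDH1L2, DSG3 and GAPDHS below it, and POR and STAR close to it.

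Members met on the chromosomes in a few places. Besides the 4 genes of chromosome 5 and the pair of MOGAT1 and its overlapping pseudogene, some were next to genes that met the limits but were left out by name. GLDN (chromosome 1, 120322417 to 120399059) lies beside CYP19A3 and the other aromatase copies, 77830 bp away. MOGAT1 lies 134060 bp before ACSL3. Over the Day 10 embryos the count ratio of GLDN to CYP19A3 ran from 0.497 to 72.3, and that of MOGAT1 to ACSL3 from 0.0860 to 0.292, so neither pair kept a fixed proportion.

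Wider gene lists give the setting of these pathways. Of 65 measured genes of lipid supply and fatty acid metabolism, 2 were members (SLC27A6 and MOGAT1) and 26 had their largest day mean on Day 10, 40.0% beside 14.4% of all genes. Between Days 8 and 12, 21 of the 65 rose, 9 fell and 35 were called neither way, with a median log2 change of 0.09. Over all genes 22.0% rose and 10.4% fell, and the median log2 change was also 0.09. Of 54 genes of cholesterol supply and steroid synthesis partners, 2 were members (POR and STAR) and 15 had their largest mean on Day 10. Here 21 rose, 8 fell and 25 were called neither way, with a median of 0.73. Of 61 secreted growth factors, cytokines and inhibitors, 3 were members (MDK, SFRP1 and CXCL12), 11 had their largest mean on Day 10, 32 rose and 9 fell between Days 8 and 12, with a median of 1.42. None of the measured genes of these lists was called between the sexes on Day 10, beside 0.223% of all genes tested.

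The marker lists held 1 member, TDGF1. Between Days 8 and 12 the epiblast list had 3 genes higher and 6 lower, the hypoblast list 8 and 2 of 12, the trophectoderm list 6 and 3 of 15, and the primitive streak and mesoderm list 2 and 1 of 5. Of the maternal lists, 6 of 7 blood and immune genes and 8 of 10 endometrium genes were higher on Day 12, and none lower. Over all genes 22.0% were higher and 10.4% lower. The summed level of the 10 endometrium genes was 1.78 to 5.62 CPM on Day 8 and 13.8 to 50.7 CPM on Day 12, and that of the 7 blood and immune genes 38.7 to 52.2 CPM and 68.0 to 418 CPM. ITGAM made up most of the latter on Day 8, with a mean of 43.7 CPM, and was at 52.9 CPM on Day 12. Their part in the Day 12 levels of the members was not tested.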

How the data were processed

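Per the methods of the study, poly(A) RNA of single embryos was sequenced after a strand-marking library kit, and reads were trimmed with Trim Galore and mapped to the pig genome version 11.1 of NCBI in Galaxy. The authors deposited unnormalized read counts for NCBI gene identifiers, with genes of low CPM removed. Which aligner, counter, strand setting and CPM limit were used is not given in the sources used here. The submitters' processing notes name edgeR. All 13103 identifiers matched the RefSeq gene table of Sscrofa11.1, which gave symbols, types and positions.

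CPM was the count over the column total of the deposited table of all embryos. The members, their roles and all gene lists were chosen with earlier results of these data known. Roles were assigned by hand from gene names. Tests used edgeR 4.0.16 in R 4.3.3 (quasi-likelihood F test, robust, TMM factors, Benjamini-Hochberg adjustment over all genes), with the 30 embryos in 3 day groups for Day 12 over Day 8, and the 10 embryos of the Day 10 table for the sexes. Each SE was derived from the log2 change and its F statistic. DESeq2 1.42.0 served as an alternative, and the R code was tested on simulated data. Spread, ratios and plots used Python 3.11.15, pandas 2.3.3 and matplotlib 3.10.9. The tables of Days 8 and 12 were not used. No pair of embryos within a group looked like a repeated library (lowest chi-square over its degrees of freedom 7.64, 60 pairs).

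Named genes were the 20 members with the largest Day 10 mean, up to 6 per role, up to 6 per direction of those called between Days 8 and 12, the 6 with the largest and smallest CV, the 3 nearest each limit and members of the lists. Others were named after their values were seen. No sequences were printed, as none were at hand.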

Additional observations from a re-analysis of the deposited data

Results flagged for a closer look

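In each of the 80 members, the highest and lowest of the 10 Day 10 embryos were compared with their nearest neighbour, and a gap above 0.466 of the range (Dixon's 95% critical value) set a value apart. This held for 1 member. LOC110260052, an unnamed gene on chromosome 3, was at 26.2 CPM in d10_f_454 and at 12.7 CPM in the next embryo, a gap of 0.637 of the range. Chance gives about 5% of groups such a gap.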

How the results depend on the processing

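The number of genes meeting the rule moved from 80 to 38 at a fold limit of 8 and to 122 at a Day 10 minimum of 1 CPM. TMM scaling added 23 genes and lost none. It was 73 with medians (67 shared), 79 in females alone (74 shared), 90 in males alone (75 shared), 113 at a fold limit of 3 and 61 at a minimum of 20 CPM. Leaving out each embryo gave 74 to 89 genes, 66 to 69 members without overlap, a median CV of 40.2% to 47.4%, 45 to 48 members called between Days 8 and 12, and 0 between the sexes. No paired analysis was possible because the labels do not say which embryos share a gilt and the groups share no replicate numbers.

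Of the 48 members called between Days 8 and 12, 47 or 48 were kept under each of RLE factors, library size alone, DESeq2, the robust GLM, a filter of 10 counts in 5 embryos, sex as a term and a fit of Days 8 and 12 alone, and 1 was lost at most: GPR137B, PHTF2 or KCNJ2. DESeq2 called 51 and the robust GLM 54. Leaving out single embryos lost at most 3 calls, among GPR137B, SLC24A4, ARHGEF37, ITPKA and PHTF2. No called member changed sign. After seeing the data, totals without the unplaced genes, IL1B2 and IL1B were tried, and the rule without pairs of embryos. Without d10_f_433 and d10_m_435, 92 genes met the rule and the median CV was 34.6%. Without d10_f_454 and d10_m_453, 67 did, with 64 members among them, and the median CV was 39.6%. The median absolute deviation over the median was 29.0%. Depth limits members near the floor, most in the smallest Day 12 library.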

Other observations

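In the male embryo d10_m_435, IL1B, the interleukin gene that is not among the members, was at 0.452 CPM, against 50.3 CPM in d10_f_433 and 490 to 1557 CPM in the other Day 10 embryos. IL1B2 was at 3604 CPM in d10_m_435. The ratio to IL1B2 of the unplaced members LOC110259014 and LOC110258272 was lowest in this embryo, at 0.0550 and 0.00133, beside medians over the 10 embryos of 0.117 and 0.00271.

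With TMM factors in place of column totals, the order of the Day 10 embryos in the members was much the same. The embryo d10_f_454 was then highest in 37 members and d10_m_453 in 29, and d10_f_433 was lowest in 47 and d10_m_435 in 23.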
